A study of Mus musculus with 6 samples.

Results

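The 38 genes described here encode the sensors of the unfolded protein response, the chaperones of the endoplasmic reticulum (ER) and the machinery of ER-associated degradation. They were chosen by gene symbol from a list of these functions. All 38 were found among the 55416 gene rows of the count table, and all 38 passed the filter on low counts that left 17679 genes for testing. They comprised 7 sensors and their transcription factors, 20 chaperones and translocation factors, and 11 degradation genes. RNA was sequenced from 6 libraries of MB21 cells, which are mouse medulloblastoma cells labelled as mutant for ptch (its product, Patched, is a receptor that holds hedgehog signalling in check). The line was grown without attachment in DMEM/F12 with B27 supplement. In 3 libraries the cells had received the vehicle DMSO, and in 3 the benzarone derivative DS-1-38 (DS38) at 10 uM. Sample titles and treatment protocol give 1 day of treatment, whereas the design text names 5 days, and the former is used here. All libraries came from this cell line, so no cells without the Ptch mutation were compared. Nothing in the labels ties the replicates to separate cultures. The spread behind each p-value is that between these libraries and may be technical.

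The ER folds secreted and membrane proteins with the help of the Hsp70-type chaperone BiP (Hspa5), the Hsp90-type chaperone Grp94 (Hsp90b1), lectin chaperones and protein disulfide isomerases. When unfolded proteins accumulate, IRE1 (Ern1) splices the Xbp1 transcript, PERK (Eif2ak3) phosphorylates the translation factor eIF2alpha, and ATF6 is cut in the Golgi to release a transcription factor. XBP1 and ATF6 induce chaperones and degradation factors, and proteins that cannot be folded are moved to the cytosol for the proteasome. Counts per gene cannot tell the spliced from the unspliced Xbp1 transcript, and they say nothing of phosphorylation or of cleavage of ATF6.

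The DMSO libraries held between 38840296 and 50014681 counts, and the DS38 libraries, all of them deeper, between 60434089 and 84044428. The first principal component (37.8% of the variance) separated the groups, and the second (22.2%) set DMSO replicate 3 apart from the other libraries. Pairs of DMSO libraries differed by a chi-square per degree of freedom of 8.57 to 9.61, and pairs of DS38 libraries by 2.91 to 3.56. The DMSO libraries were thus more scattered, while the test takes the same spread for both groups. All 8 genes listed as markers of the cerebellar granule lineage were measured. Their summed CPM (counts scaled to library size) was 1911 to 1949.7 in DMSO and 1893 to 1935 in DS38. Of the 8, 2 rose and 5 fell, or 87.5% against 24.5% of all genes tested. The rises were 25.8% for Atoh1 and 20.9% for Barhl1. Those that fell changed by -22.5% (Neurod1), -12.5% (Ptch1), -9.70% (Gli1), -9.55% (Zic2) and -6.46% (Zic1), so the sum does not show these shifts. Summed markers of astrocytes, microglia, endothelium, fibroblasts and oligodendrocytes each stayed at or under 6.38 CPM in every library. Gfap was the most abundant astrocyte marker, Tmem119 the most abundant of microglia, Pecam1 of endothelium and Lum of fibroblasts, and the endothelial markers Kdr and Cldn5 and the oligodendrocyte marker Mag had no count at all. Astrocyte markers summed to 4.87 to 5.35 CPM in DMSO and 5.88 to 6.38 in DS38. Fibroblast markers summed to 1.10 to 1.32 and 1.82 to 2.15. The groups did not overlap in either sum, as in 20.7% of all genes tested with DS38 higher. Most of the astrocyte sum was Gfap (mean 4.33 CPM in DMSO and 5.40 in DS38), while S100b was lower in DS38 (0.788 and 0.612). The part of these markers in the results was not tested. In bulk RNA, fewer cells of a kind and less RNA per cell cannot be told apart.

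After 1 day of DS38 the ER genes moved little and in no common direction. Among the 38, 6 rose (Xbp1, Atf6, Edem2, Herpud1, Derl1 and Serp1) and 3 fell (Dnajc3, Edem3 and Pdia3), with rises of 7.23% to 21.8% and changes of -10.7% to -6.32% in those that fell. This was 23.7% of the members, against 24.5% of all genes tested (12.9% higher, 11.7% lower; edgeR's quasi-likelihood test, Benjamini-Hochberg adjusted over all 17679 genes, threshold 0.05). The libraries of the groups did not overlap in 9 members that were higher and 4 that were lower, against 20.7% and 17.9% of all genes tested. Their median log2 fold change was 0.006, against 0.004 over all genes, and the median size of the change was 0.05, against 0.12. The members are abundant, and among the 10606 genes at 5 CPM or more in at least 3 libraries 34.0% were called, with a median size of 0.08, against 9 of the 37 members at that level. Without DMSO replicate 3, 9 members were higher and 4 lower. With every library thinned to the smallest total, 6 were higher and 3 lower, as many as at full depth. With library size alone in place of TMM scaling, 11 were higher and 2 lower, and the share of all calls that were higher went from 52.4% to 68.1%.

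**Figure D1:**
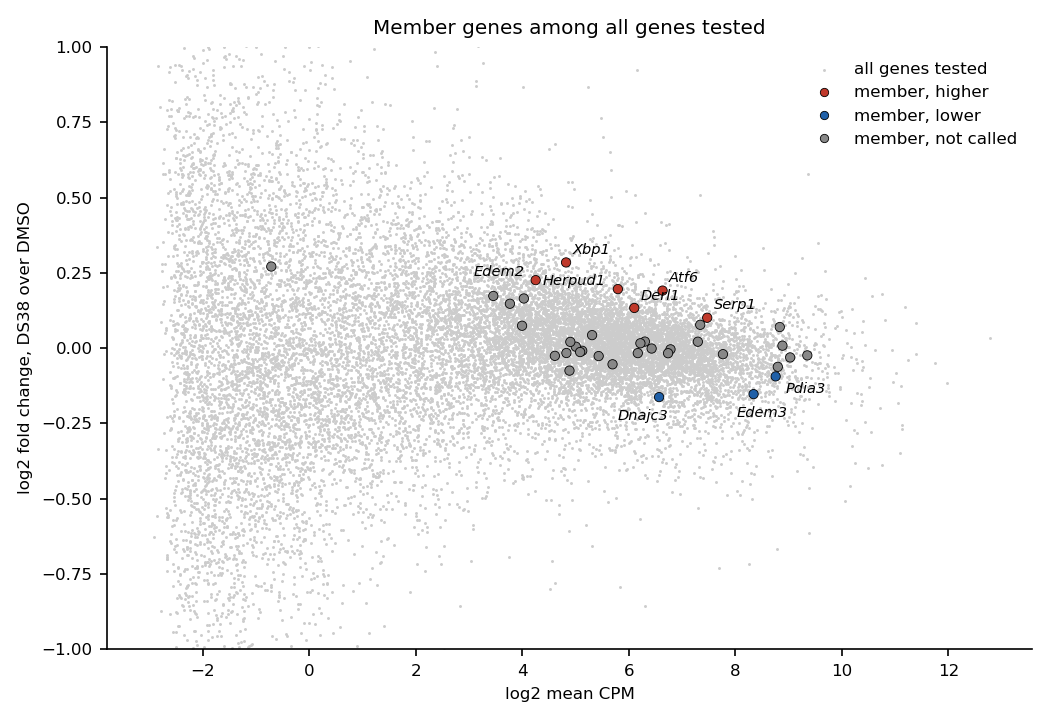
Log2 fold change of DS38 over DMSO (vertical axis) against log2 mean CPM (horizontal axis) for all 17679 genes tested (grey dots) and the 38 members (outlined, red where higher, blue where lower, dark grey where not called). Xbp1 at 0.28 and Dnajc3 at -0.16 are the called members farthest from 0 in each direction, Pdia3 and Serp1 lie within the cloud, and 259 genes lie beyond the vertical axis.

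Levels were compared between genes as FPKM, counts scaled to the deposited gene length and to library size. Calr (calreticulin, a lectin chaperone) stood at 163.6 FPKM in DMSO, Pdia3 at 142, Canx (calnexin, its membrane-bound relative) at 140.3, Hsp90b1 at 131 and Hspa5 at 105. These were the leading chaperones, and their order was the same in DS38 except that Canx stood above Pdia3. Sensors were far lower, from 26.3 FPKM for Atf6b to 1.41 for Creb3l2, with a median of 6.49 against 28.1 for chaperones and 16.6 for degradation genes. Derl3, a derlin of the channel through which proteins leave the ER, was the least abundant at 0.276 FPKM and had 229 counts over all libraries. Canx had the most counts, 236057.

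**Figure D2:**
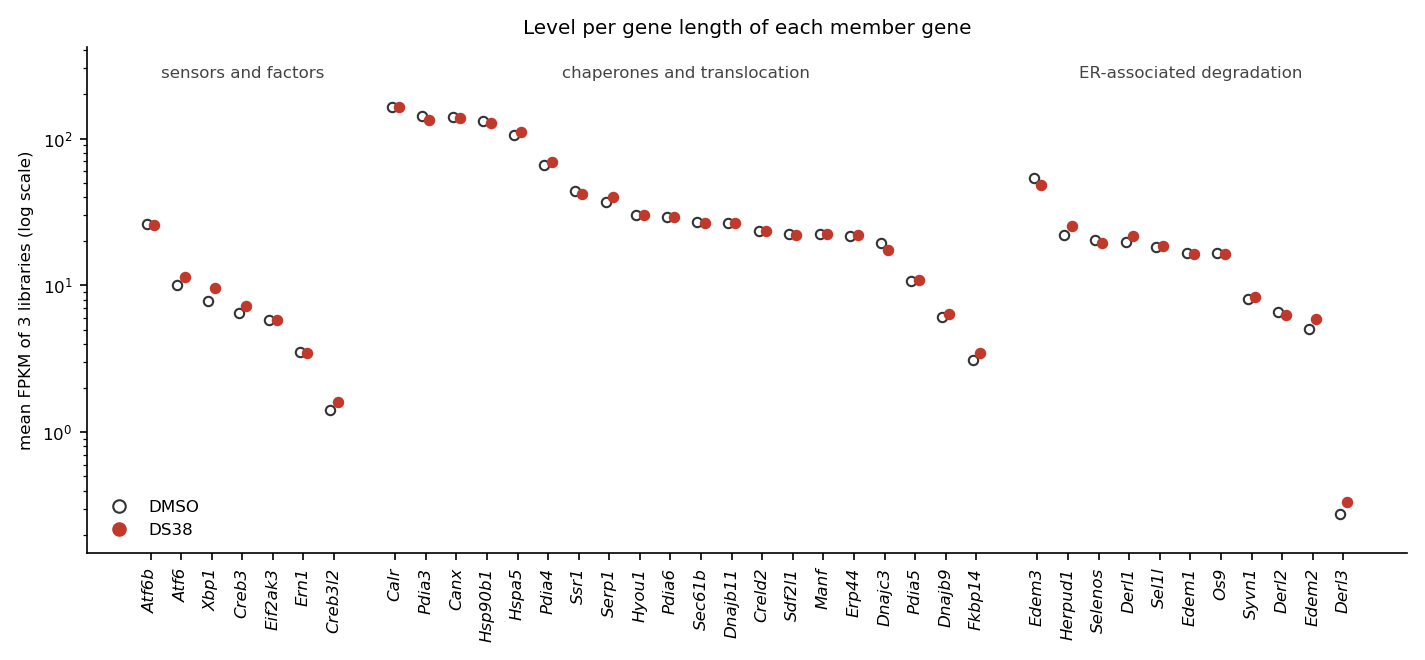
Mean FPKM of 3 libraries on a log scale (vertical axis) for each member, sorted within the sensors, chaperones and degradation genes; open circles are DMSO and red circles DS38. The paired circles nearly coincide for most genes, from 163.6 FPKM for Calr to 0.276 for Derl3.

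Promoters are shown because the ER stress response element (ERSE), which ATF6 binds together with NF-Y, defines many genes of this response. Windows of 300 bases, from 250 before to 50 after the start, were taken from RefSeq (GRCm38.p6) and matched 34 of the 38 members. Atf6, Hyou1, Manf and Derl1 had no window and were not searched. The letters CCAAT and CCACG with 9 bases of any kind between them, searched on both strands, were found in 9 of these 34 members (26.5%) and in 0.137% of all 27025 genes with a window. Stretches upstream of the start follow, 5′ to 3′ along the gene, with the match in capitals, and a match on the other strand reads as CGTGG to ATTGG.
Hspa5 (chr2:34772005-34772063, plus strand): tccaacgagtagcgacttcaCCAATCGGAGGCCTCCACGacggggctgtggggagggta
Hsp90b1 (chr10:86705513-86705676, minus strand): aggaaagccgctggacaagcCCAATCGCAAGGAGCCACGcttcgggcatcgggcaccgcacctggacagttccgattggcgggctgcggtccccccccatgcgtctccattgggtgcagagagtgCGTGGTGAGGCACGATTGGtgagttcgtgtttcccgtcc
Calr (chr8:84847055-84847113, minus strand): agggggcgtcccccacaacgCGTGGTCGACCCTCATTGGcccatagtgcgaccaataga
Canx (chr11:50325780-50325838, minus strand): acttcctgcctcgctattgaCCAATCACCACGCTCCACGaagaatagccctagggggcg
Creld2 (chr15:88819500-88819558, plus strand): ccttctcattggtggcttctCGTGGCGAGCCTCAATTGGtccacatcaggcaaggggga
Pdia6 (chr12:17266471-17266529, plus strand): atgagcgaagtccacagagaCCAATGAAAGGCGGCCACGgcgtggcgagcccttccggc
Dnajc3 (chr14:118937807-118937865, plus strand): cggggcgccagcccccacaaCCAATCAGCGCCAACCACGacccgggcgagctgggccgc
Syvn1 (chr19:6046512-6046570, plus strand): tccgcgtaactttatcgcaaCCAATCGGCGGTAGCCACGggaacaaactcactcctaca

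The ninth, Derl3, also held the letters. Of these 9 genes none rose, Dnajc3 fell and 8 were not called, with a median log2 fold change of 0.004. Of the 25 members with a window and no such match, 4 rose, 2 fell and 19 were not called. Atf6 and Derl1, which also rose, had no window and are in neither set. Of all genes tested 24.5% were called, and 34.0% of those at 5 CPM or more in at least 3 libraries. The difference between the sets with and without a match was not tested. A second form, ERSE-II (ATTGG and CCACG with 1 base between them, so that its end is shared with ERSE), was found in Herpud1 and Dnajb11 and in 0.0444% of all genes. Herpud1 also held TGATGNAA, the core of the element bound by ATF4, on the other strand, which 4.51% of all genes did. Both are in capitals, the ATF4 element first and ERSE-II second.
Herpud1 (chr8:94386297-94386407, plus strand): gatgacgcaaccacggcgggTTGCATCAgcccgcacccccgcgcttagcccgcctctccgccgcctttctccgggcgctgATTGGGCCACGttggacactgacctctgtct

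The letters TGACGTGG, the core of the element preferred by XBP1, were in no member's window and in 0.714% of all genes, which says only that these letters are not in these windows.

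Among the sensors and factors, Xbp1 and Atf6 rose while the kinases IRE1 and PERK stayed near their DMSO level. Of 7 tested, 2 rose and none fell by edgeR, or 28.6% against 24.5% of all genes tested. The share was 34.0% among genes at 5 CPM or more in at least 3 libraries. No sensor fell at an unadjusted p under 0.05 or with DESeq2 either. The number higher went to 3 when DMSO replicate 3, DS38 replicate 1 or DS38 replicate 3 was left out, with no filter or with robust dispersion, and to 4 under library size alone. Xbp1 (ENSMUSG00000020484), the transcription factor activated by IRE1, was at 26.2, 24.8 and 25.6 CPM in DMSO replicates 1 to 3 and at 33.2, 29.7 and 30.2 in DS38. The groups did not overlap, as in 38.6% of all genes tested. It rose by 21.8%, the largest change among the called members (log2 fold change 0.28 ± 0.049, SE; adjusted p = 1.88e-04 by edgeR). Atf6 (ENSMUSG00000026663) was at 95.5, 92.4 and 90.2 CPM in DMSO and at 106.7, 105.6 and 105.2 in DS38, again without overlap. Its rise was 14.1%, a log2 fold change of 0.19 ± 0.031 (edgeR adjusted p = 9.95e-05). Both calls held under all 16 alternative analyses.

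The paralogue Atf6b did not follow Atf6 past the threshold. It was at 70.1, 71.8 and 75.3 CPM in DMSO and at 73.6, 70.1 and 70.6 in DS38, with overlapping groups (edgeR adjusted p = 0.772). Ern1 was at 27.0 to 29.6 CPM in DMSO and 27.3 to 29.9 in DS38, and Eif2ak3 at 33.8 to 35.7 and 34.4 to 35.2. The 95% intervals of these changes, not adjusted for multiple tests, were -7.88% to 6.10% for Ern1, -6.24% to 5.32% for Eif2ak3 and -6.01% to 3.94% for Atf6b. Creb3 and Creb3l2 encode membrane-bound transcription factors that are cut like ATF6. Creb3 had 15.4 ± 0.990 CPM in DMSO (SD, n = 3) and 17.2 ± 0.942 with DS38 (adjusted p = 0.0534 by edgeR). Creb3l2 had 10.3 ± 0.710 CPM and 11.6 ± 0.846 (adjusted p = 0.0873 by edgeR). Neither passed, and in each gene the groups overlapped. Creb3 passed without DMSO replicate 3 (edgeR adjusted p = 0.0169) or DS38 replicate 3 (0.0286), with no filter (0.0364), robust dispersion (0.0494) or library size alone (0.0231). For Creb3l2 the adjusted p by edgeR was 0.0370 when DS38 replicate 1 was left out and 0.0391 under library size alone. Of Creb3's exon bases, 15.2% lie opposite Tln1, whose reads cannot be told apart where strand was not counted.

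**Figure D3:**
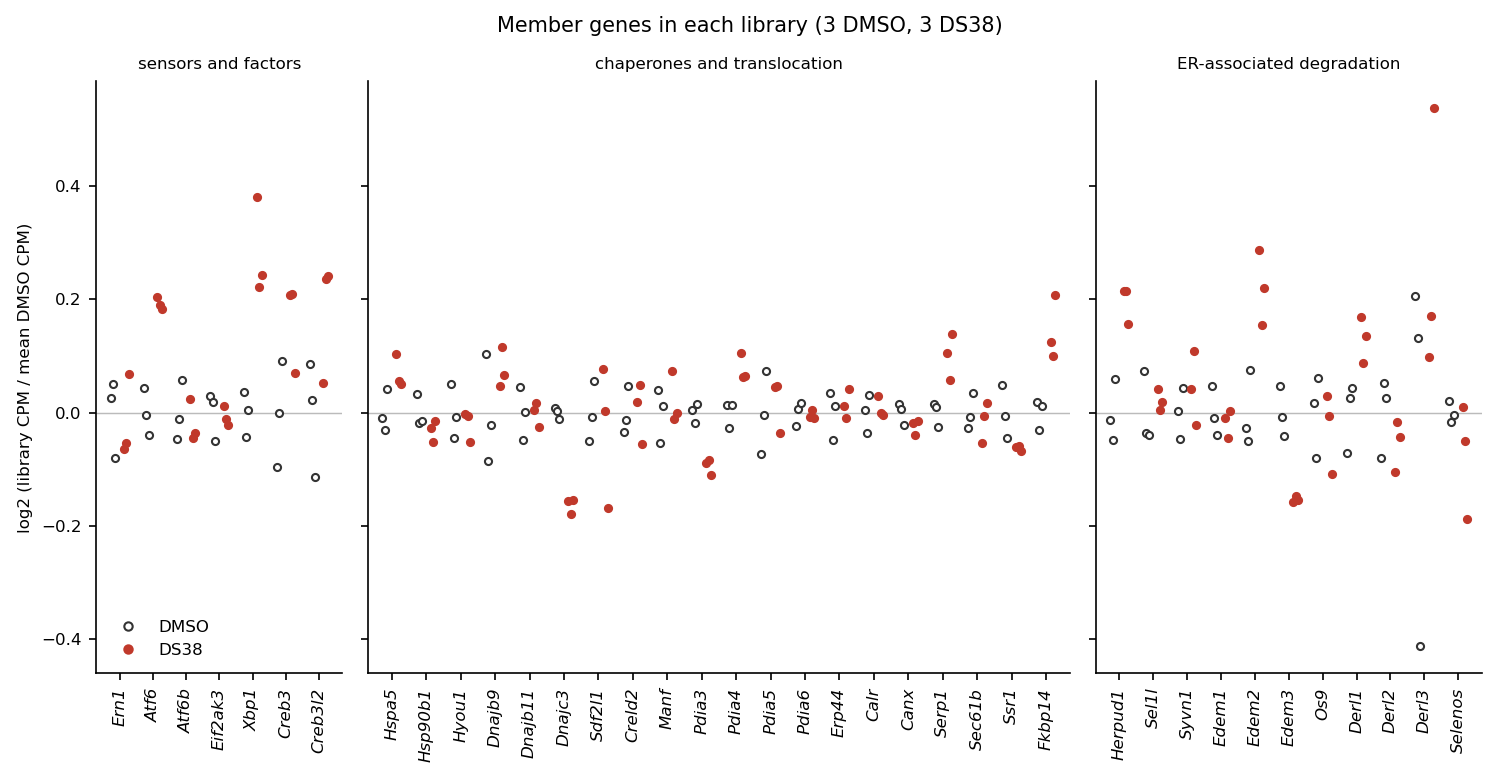
Log2 ratio of each library's CPM to the mean DMSO CPM (vertical axis) for the 38 members, in panels for sensors, chaperones and degradation genes; open circles are DMSO and red circles DS38 libraries. The red circles of Xbp1, Atf6, Herpud1, Edem2 and Derl1 lie above and those of Dnajc3, Edem3 and Pdia3 below all open circles, and in most other genes the groups mix.

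The chaperones that are the usual readout of ER stress did not pass the test. Of 20 chaperones and translocation factors, 1 rose and 2 fell. The share called was 24.5% among all genes tested and 34.0% among those at 5 CPM or more in at least 3 libraries. These 20 had a median log2 fold change of 0.001. None rose once DS38 replicate 1 or 3 was left out or gene length was corrected for (unadjusted by edgeR, Hspa5, Pdia4, Serp1 and Fkbp14 had intervals above 0 in the full data). Under limma-voom 3 rose, as they did when DMSO replicate 3 was left out, and under library size alone 4. Those that fell numbered 1 without DS38 replicate 1 or 3 and under library size alone. They numbered 3 without DMSO replicate 3 and with the length correction. Hspa5, which encodes BiP, was at 442, 436 and 458 CPM in DMSO and at 478, 463 and 461 in DS38. The groups did not overlap, yet the rise of 4.96% (95% interval 0.699% to 9.40%) missed the threshold (0.07 ± 0.029 in log2 units; adjusted p = 0.0823 by edgeR). It passed without DMSO replicate 3 (edgeR adjusted p = 0.0147), and under limma-voom (0.0477) or library size alone (0.00776). Pdia4, a disulfide isomerase, was close to it: 159.2, 154.8 and 159.2 CPM in DMSO and 169.5, 164.6 and 164.9 in DS38 (5.49% higher; edgeR adjusted p = 0.0534). It passed without DMSO replicate 3 (edgeR adjusted p = 0.0394), with limma-voom (0.0467), robust dispersion (0.0465), the stricter filter (0.0405) and library size alone (0.00423).

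The other major chaperones lay closer to 0. Hsp90b1 was at 541, 522 and 523 CPM in DMSO and at 518, 509.8 and 522 in DS38, with an interval of the change from -5.96% to 1.83%; with the length correction it was called lower (edgeR adjusted p = 0.0337). Calr was at 473, 459.7 and 481 CPM and at 481, 471 and 469.7, with an interval from -3.41% to 4.67%. Canx was at 666, 661 and 649 CPM and at 650.04, 641 and 652, with an interval from -5.41% to 2.21%. The groups overlapped in each of the 3. These are genes with an ERSE in the stretches above, as are Pdia6 (interval -4.38% to 3.96%) and Creld2, a secreted ER stress protein (-5.80% to 6.81%). The promoters of Hyou1 and Manf were not searched. Hyou1, an Hsp110-type chaperone that recharges BiP, had an interval from -5.59% to 2.98%. For Manf, an ER-resident factor that is also secreted, it was -3.44% to 6.69%. The BiP co-chaperones Dnajb9 and Dnajb11, the first a target of XBP1, had log2 fold changes of 0.07 ± 0.059 and -0.002 ± 0.033 (edgeR adjusted p = 0.393 and 0.980). Exons of Hsp90b1 lie opposite 1810014B01Rik over 10.3% of their bases.

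Dnajc3 (ENSMUSG00000022136), which encodes p58IPK, a BiP co-chaperone that also restrains PERK, fell. It was at 100.8, 100.4 and 99.4 CPM in DMSO and at 89.9, 88.6 and 89.98 in DS38, with narrow and separate groups. The fall of 10.7% (log2 fold change -0.16 ± 0.030; edgeR adjusted p = 3.19e-04) held under all 16 alternatives. Pdia3 (ENSMUSG00000027248), also called ERp57, the isomerase that works with calnexin and calreticulin, fell by 6.32%. It was at 448, 441 and 451 CPM in DMSO and at 420.01, 421 and 414 in DS38 (log2 fold change -0.09 ± 0.027; edgeR adjusted p = 0.0126). That call was lost without DS38 replicate 1 (edgeR adjusted p = 0.0531) or 3 (0.0748) and with library size alone (0.0903). Serp1 (ENSMUSG00000027808), a small partner of the translocon, rose by 7.23%. It was at 173, 172.5 and 168 CPM in DMSO and at 184, 178 and 189 in DS38 (log2 fold change 0.10 ± 0.030; edgeR adjusted p = 0.0153). The rise was lost without DS38 replicate 1 (edgeR adjusted p = 0.0623) or 3 (0.100) and with a correction for gene length (0.0834).

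Other members of the translocation route did not pass. Sec61b, a subunit of the translocon, had 34.1 ± 0.745 CPM in DMSO (SD, n = 3) and 33.8 ± 0.830 with DS38. Ssr1, a subunit of the translocon-associated complex, was at 440.6 to 470.2 CPM in DMSO and 433.7 to 436.3 in DS38. The DS38 values of Ssr1 were all below those in DMSO, but the difference did not pass (edgeR adjusted p = 0.122) except without DMSO replicate 3 (0.0131). Fkbp14, a prolyl isomerase of the ER, stood at 12.7 to 13.1 CPM in DMSO and 13.9 to 14.9 in DS38 (edgeR adjusted p = 0.0741), and it passed with library size alone (0.0288). Pdia5, Erp44 (which retrieves proteins from the Golgi) and Sdf2l1 (a BiP cofactor) had log2 fold changes of 0.02 ± 0.046, 0.02 ± 0.033 and -0.03 ± 0.057, and each had overlapping groups.

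**Figure D4:**
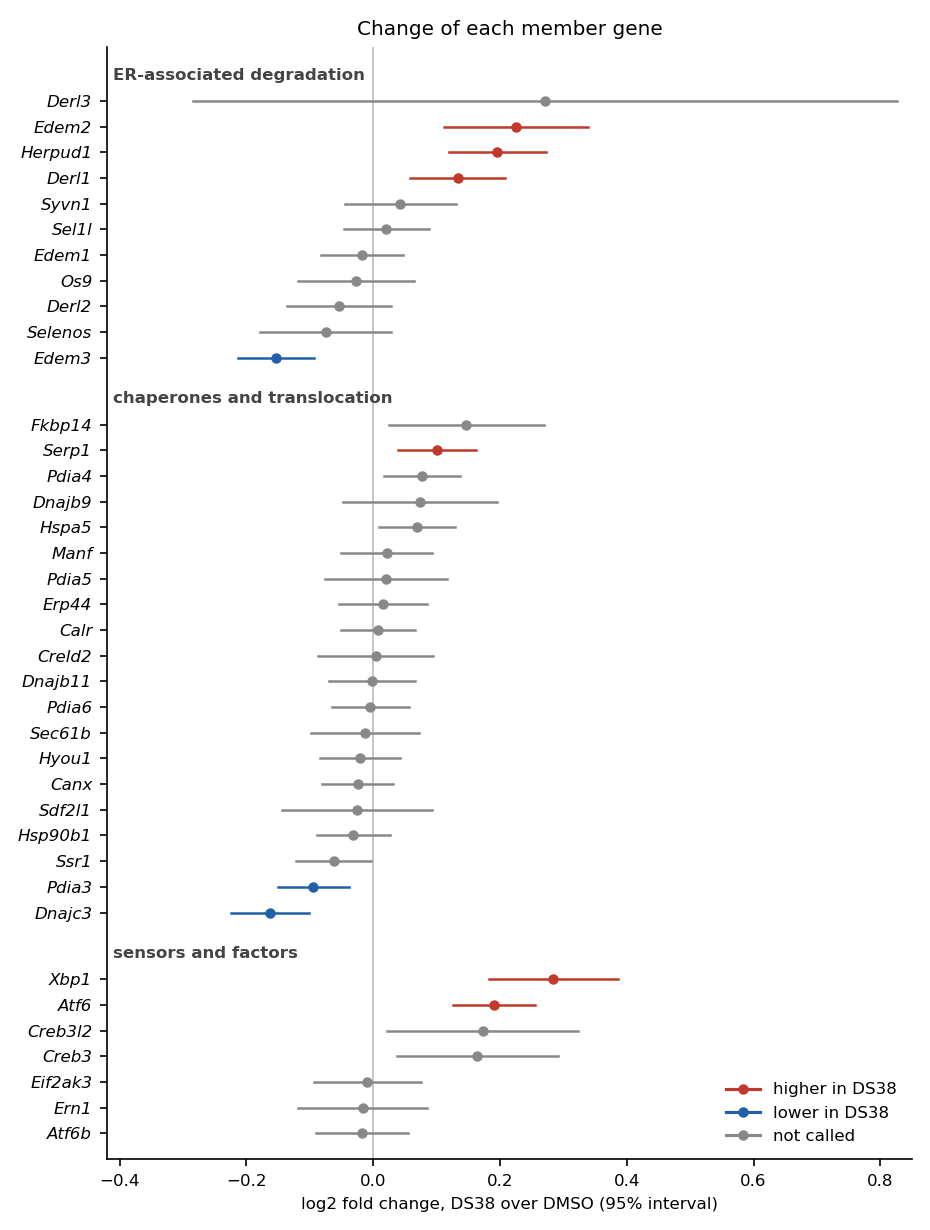
Log2 fold change of DS38 over DMSO with its 95% interval (horizontal axis, not adjusted for multiple tests) for each member, sorted within degradation genes (top), chaperones and sensors (bottom); red is higher, blue lower and grey not called. Chaperones run from -0.16 for Dnajc3 to 0.15 for Fkbp14 with most intervals spanning 0, and Xbp1 stands highest among the called genes at 0.28.

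Of 11 genes of ER-associated degradation, 3 rose and 1 fell, or 36.4% against 24.5% of all genes tested. The share was 34.0% among genes at 5 CPM or more in at least 3 libraries, a set without Derl3 (0.55 CPM in DMSO). Herpud1 (ENSMUSG00000031770), an organiser of the degradation complex that is induced in ER stress, was at 51.3, 50.1 and 53.9 CPM in DMSO and at 60.03, 60.1 and 57.6 in DS38. The groups were separate, and the rise of 14.5% (log2 fold change 0.20 ± 0.037; edgeR adjusted p = 4.52e-04) held under all 16 alternatives. Derl1 (ENSMUSG00000022365), a derlin, was at 62.4, 66.7 and 67.6 CPM in DMSO and at 73.7, 69.7 and 72.03 in DS38. Its rise of 9.67% (log2 fold change 0.13 ± 0.036; edgeR adjusted p = 0.00938) was lost without DMSO replicate 1 (0.0670) or DS38 replicate 1 (0.0655) and with the length correction (0.0550). Derl2 had 52.7 ± 2.52 CPM in DMSO (SD, n = 3) and 50.8 ± 1.58 with DS38 (adjusted p = 0.350 by edgeR), and Derl3 was too low to tell (interval -17.9% to 77.3%).

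Members of the EDEM family, lectins that mark misfolded glycoproteins by trimming mannose, went opposite ways. Edem2 (ENSMUSG00000038312) was at 17.3, 17.0 and 18.5 CPM in DMSO and at 21.4, 19.6 and 20.5 in DS38, a rise of 16.9% (log2 fold change 0.23 ± 0.055; edgeR adjusted p = 0.00400). Edem3 (ENSMUSG00000043019), the most abundant per length of the degradation genes, was at 353, 340 and 332 CPM in DMSO and at 306, 308 and 307 in DS38. It fell by 10.1% (log2 fold change -0.15 ± 0.029; edgeR adjusted p = 4.33e-04), and both calls held under all 16 alternatives. Edem1, known as a target of XBP1, was at 104.4 to 110.9 CPM in DMSO and 103.97 to 107.5 in DS38 (interval -5.53% to 3.37%). The core of the ubiquitin ligase showed no change past the threshold: Sel1l went from 156 ± 6.97 to 158 ± 2.07 CPM and the ligase Syvn1 (HRD1) from 39.1 ± 1.22 to 40.3 ± 1.82. Os9, a lectin that brings substrates to that ligase, and Selenos, a selenoprotein of the export complex, had log2 fold changes of -0.03 ± 0.044 and -0.07 ± 0.049, with overlapping groups.

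Other genes of the pathway were taken from 7 further lists. Among these 7, the list for output of the PERK arm had the largest median log2 fold change, 0.21. Of its 10 genes 8 rose and 1 fell. Of all genes tested 24.5% were called, and 34.0% of those at 5 CPM or more in at least 3 libraries. The lists were chosen with earlier results of these data known, so their ranking is not an independent test. The list also holds Eif2s1, whose product is phosphorylated by PERK. Trib3, a pseudokinase, was at 5.67, 7.32 and 6.59 CPM in DMSO and at 12.5, 11.8 and 13.3 in DS38 (log2 fold change 0.95 ± 0.083; edgeR adjusted p = 4.46e-08). Ddit3, which encodes CHOP, was at 10.7, 10.7 and 10.9 CPM and at 16.9, 15.7 and 14.5 (0.55 ± 0.066; edgeR adjusted p = 2.86e-06). The groups were far apart in both Trib3 and Ddit3. Another gene identifier also carries the symbol Ddit3 and is not reported here. Asns, asparagine synthetase, rose by 0.26 ± 0.030 on the log2 scale. These genes also respond to the other eIF2alpha kinases, so their counts do not single out PERK. Eif2s1, which encodes eIF2alpha itself, fell by 0.10 ± 0.028, a call lost without any of the 3 DS38 replicates (edgeR adjusted p = 0.0583, 0.0629 and 0.0624 without replicates 1, 2 and 3) and with library size alone (0.107).

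In the other 6 lists, 94 genes were tested, of which 23 rose and 2 fell, with a median log2 fold change of 0.03. This was 26.6% of them, near the 24.5% of all genes tested. Of genes at 5 CPM or more in at least 3 libraries, 34.0% were called. Of 10 further regulators 3 rose: Tmbim6, an ER membrane protein that restrains IRE1 (0.15 ± 0.029), Mbtps2, the Golgi protease that cuts ATF6 (0.13 ± 0.032), and Creb3l1 (0.47 ± 0.16, at 1.44 ± 0.230 CPM in DMSO). Of 16 genes of oxidative folding 6 rose, and the smallest adjusted p-values were those of the thioredoxin-domain genes Txndc5 (0.17 ± 0.033), Txndc16 (0.15 ± 0.036) and Tmx2 (0.11 ± 0.030). That count was 3 without DS38 replicate 1 or 2 and with the length correction. Of 15 BiP cofactors and foldases 5 rose and 1 fell. Sil1, the nucleotide exchange factor of BiP, stood at 14.5 ± 0.434 CPM in DMSO and 17.8 ± 0.670 in DS38 (0.29 ± 0.056 in log2 units; adjusted p = 5.25e-04 by edgeR), and the prolyl isomerases Fkbp9 and Ppib rose by 0.20 ± 0.030 and 0.15 ± 0.032, while Dnajc1 fell by 0.14 ± 0.046.

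Of all genes tested 24.5% were called, and 34.0% of those at 5 CPM or more in at least 3 libraries. Of 16 translocon and signal peptidase genes 2 rose (12.5%), Ssr2 (0.09 ± 0.030) and Sec11c (0.09 ± 0.032). Neither passed without DMSO replicate 1 or 2 or without DS38 replicate 1 or 2, and neither passed with the replicate block or the length correction. Sec11c lost its call in 11 of the 16 alternatives, RLE scaling and DESeq2 included, and 6 of the 16 genes rose with library size alone. Of 15 genes of N-glycosylation and the calnexin cycle 2 rose (13.3%), Krtcap2 (0.18 ± 0.037), a subunit of the oligosaccharyltransferase, and Man1b1 (0.10 ± 0.035), a mannosidase. Of these, 1 was left when DMSO replicate 1, DMSO replicate 2, DS38 replicate 1 or DS38 replicate 3 was dropped, and under RLE scaling, DESeq2 or the length correction. Of 22 further degradation genes 5 rose and 1 fell (27.3% called). The ubiquitin ligase gene Rnf185 (0.18 ± 0.040) and Jkamp (0.13 ± 0.038) were among those that rose, and the conjugating enzyme gene Ube2j1 fell by 0.13 ± 0.031. The number higher went to 2 when DS38 replicate 2 was left out. It was 3 without DMSO replicate 1, DMSO replicate 2, DS38 replicate 1 or DS38 replicate 3. Over their alternatives, the highest edgeR adjusted p was 0.135 for Creb3l1, 0.0634 for Tmx2, 0.154 for Dnajc1, 0.178 for Man1b1 and 0.108 for Jkamp.

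**Figure D5:**
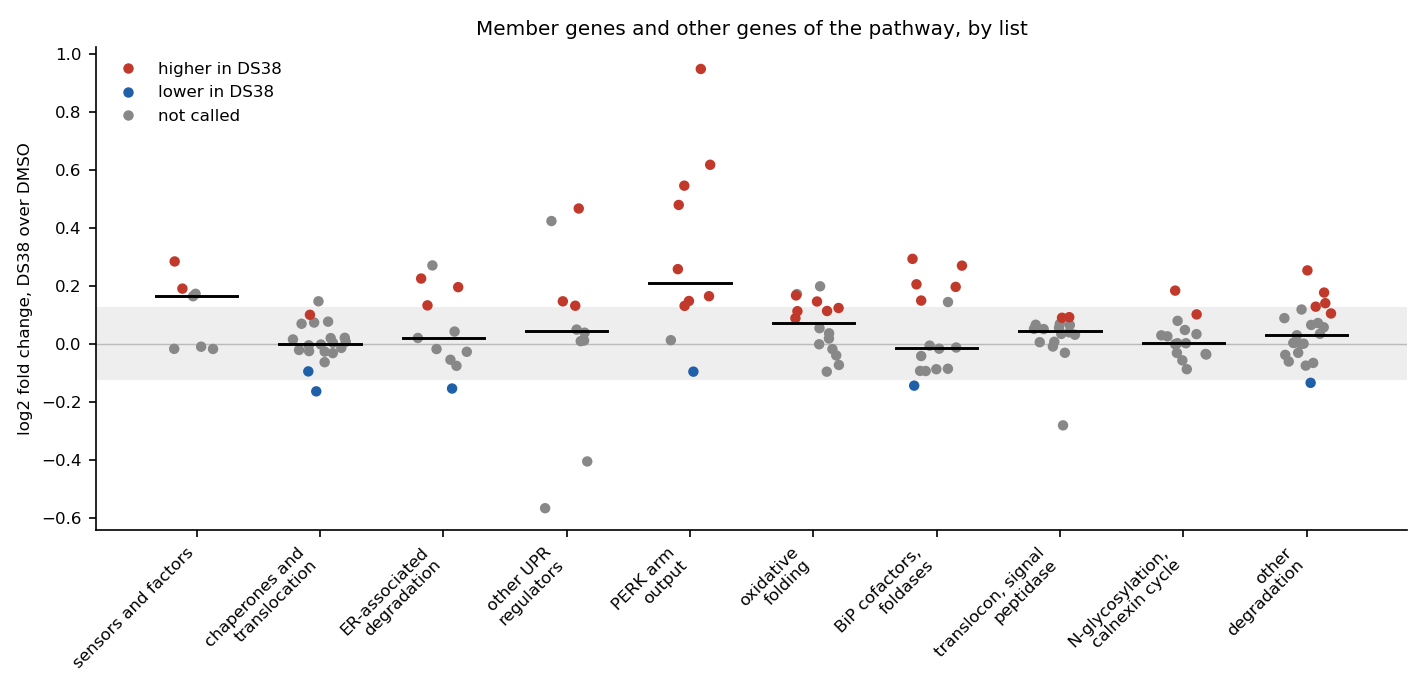
Log2 fold change of DS38 over DMSO (vertical axis) of each tested gene in the 3 member lists and the 7 other lists (horizontal axis); red is higher, blue lower and grey not called, black bars are list medians, and the grey band spans the lower to the upper quartile of all genes tested (-0.12 to 0.13). The PERK arm has the highest median, 0.21, and the chaperones lie within a narrow range around 0.001.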

How the data were processed

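The tools named, per the submitters' processing notes, are the aligner STAR (2.7.9a), Subread (2.0.3) with featureCounts, edgeR and R (4.1.0); the builds named are GRCm39 and GRCh38.p13. How strand and multi-mapped reads were handled is not given in the sources used here. The authors deposited whole-number counts per gene for 6 libraries, with gene length in bases, per the file headers. Symbols were matched for 52083 identifiers; the others held 0.345% of counts. Some pathway genes are not reported here. The files' build is not that of the reference, so no gene coordinates are given, except GRCm38.p6 promoters.

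Genes were filtered with filterByExpr (minimum count 10, minimum total 15), scaled by TMM and tested with edgeR 4.0.16 in R 4.3.3 (quasi-likelihood, two-sided, group as sole term, all 6 libraries). SE is the log2 fold change over the root of its F statistic. Levels are TMM-normalized CPM. Intervals cover 95% per gene. Alternatives used limma 3.58.1 and DESeq2 1.42.0. The fit was also run on counts simulated from its own fitted model, which cannot show whether that model suits these data. Members, lists and the rule for named genes (all members, and the 3 smallest adjusted p per direction in each other list) were chosen with earlier results of these data known.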

Additional observations from a re-analysis of the deposited data

How the results depend on the processing

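The members and named genes were reanalysed under 16 alternatives. All 9 called members kept their direction in every one, and 6 (Xbp1, Atf6, Dnajc3, Herpud1, Edem2 and Edem3) also kept their call; Pdia3, Serp1 and Derl1 lost it in 3 each. Of the 29 members not called, 22 were called in no alternative and 7 in at least 1; 18 changed sign in at least 1. The stricter filter removed Derl3. Members higher numbered 11 with library size alone, which moved the median of all genes from 0.004 to 0.04; the cause was not tested. They numbered 4 with the length correction, 8 with limma-voom or robust dispersion and 5 to 9 with a library left out; members lower numbered 2 to 4. Leaving out a library gave 1640 to 2437 genes higher and 1549 to 2474 lower.

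No sign was seen that the replicate number paired the samples, as deviations of same-numbered libraries correlated at 0.035, -0.011 and -0.027. With 3 libraries per group, these correlations cannot exclude pairing. With the replicate number as a replicate block, 6 members were higher and 3 lower, and 2108 genes higher and 1902 lower. Of 22 genes that the naming rule chose from other lists, 8 lost their call under at least 1 alternative. Derl3 had the fewest counts of the members, 229 in all, and the widest interval.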
